A study of Homo sapiens with 6 samples.

Results

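Integrin αV (ITGAV), the β subunits that pair with it other than β1 (ITGB3, ITGB5, ITGB6 and ITGB8) and 5 of its matrix ligands (FN1, SPP1, VTN, THBS1 and MFGE8) were followed in DCIS.COM cells with and without knockdown of BCL9, a transcriptional coactivator of the Wnt pathway. These 10 genes were taken by name from the 58676 genes of the expression table, with no threshold on a measured value, though earlier results of these data were known when they were chosen. The DCIS.COM line is human, established, basal in type and serves as a model of ductal carcinoma in situ (DCIS). RNA sequencing covered 3 flasks of BCL9 KD cells, which carried a PLKO.1 lentiviral shRNA against BCL9, and 3 flasks of NS control cells, which carried a non-silencing shRNA in the same vector. Both groups had been selected with puromycin, were used within a few passages and were grown in DMEM/F12 with horse serum. Whether the flasks of a group came from separate transductions is not given in the sources used here, so p-values measure the spread between flasks, which may be technical.

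Integrins are adhesion receptors made of an α and a β subunit, and αV can pair with several β subunits, so the partner available sets which matrix proteins the cell binds. The αV receptors read a tripeptide of arginine, glycine and aspartate (RGD) that is exposed in fibronectin (FN1), osteopontin (SPP1), vitronectin (VTN) and MFGE8, and thrombospondin 1 (THBS1) is also a known ligand of αVβ3. Integrins αVβ6 and αVβ8 bind an RGD in the latency peptide of TGF-β and release the active cytokine, whereas αVβ3 and αVβ5 are best known as receptors for vitronectin and for adhesion and migration.

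Each of the 5 ligands holds an RGD, and the codons for it are shown with the bases on each side, read 5′ to 3′ on the coding strand from the GENCODE release 44 transcript models on GRCh37, with the RGD codons in capitals.
FN1: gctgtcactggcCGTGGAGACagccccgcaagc
SPP1: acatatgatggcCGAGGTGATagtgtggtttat
VTN: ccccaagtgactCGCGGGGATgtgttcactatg
THBS1: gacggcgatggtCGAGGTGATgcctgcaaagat
MFGE8: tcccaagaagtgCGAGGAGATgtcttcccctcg
The FN1 codons lie in exon 30 of 46 at chr2:216248786-216248794 (minus strand) and encode residues 1615 to 1617 of 2477. Those of SPP1 are in exon 6 of 7 at chr4:88902885-88902893 (plus strand) and give residues 159 to 161 of 314. In VTN they are in exon 3 of 8 at chr17:26696859-26696867 (minus strand), residues 64 to 66 of 478. In THBS1 they are in exon 18 of 22 at chr15:39885209-39885217 (plus strand), residues 926 to 928 of 1170. The MFGE8 codons are in exon 2 of 9 at chr15:89453084-89453092 (minus strand), residues 46 to 48 of 387. SPP1 and THBS1 use the same 3 codons, and the other ligands each use their own. An RGD is not rare in itself, since 8.13% of 19514 coding genes hold at least 1. Among the receptor subunits, ITGB5 holds 1 and ITGB6 holds 2.

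Expression was deposited as FPKM, the reads counted on a gene per kilobase of its length, scaled to the depth of the sample. Levels of different genes, and shares and ratios made from them, thus rest on the length deposited for each gene. That length was 4394 bases for ITGB3, 6837 for MFGE8, 15156 for ITGB8 and 17315 for FN1, and it need not be that of the transcript expressed. The same length was used in every sample. The reads counted on genes were between 15222452 and 22712638 in NS control and between 15665714 and 26949026 in BCL9 KD samples. Differences were tested with limma on log2(FPKM + 0.5) across the 13745 genes with a mean of at least 0.5 FPKM, with Benjamini-Hochberg adjustment over all of them, and a gene was called at an adjusted p under 0.05. Fold changes are on that log2 scale, BCL9 KD minus NS control, and the added 0.5 FPKM makes them smaller than the plain ratio for genes of low expression. BCL9 itself (chr1:147541412-147626216, hg38) was measured at 6.25, 6.24 and 5.34 FPKM in the NS control flasks and at 2.86, 2.78 and 2.59 FPKM in the BCL9 KD flasks. Its log2 fold change was −0.99 ± 0.0933 (SE, limma adjusted p = 0.00773), and the adjusted p was 0.0636 without NS control replicate 2, 0.0589 without BCL9 KD replicate 2 and 0.070 without BCL9 KD replicate 3. NS control replicate 1 stood apart for genes of low GC content: over the 2716 tested genes in the lowest of 5 equal bins of GC content, its median deviation from the mean of the 6 samples was −0.44 on the log2 scale, against −0.053 to 0.16 in the other 5 samples. The 7 markers listed as basal epithelial, among them EPCAM and CDH1, which are not particular to basal cells, all passed the filter. They summed to 1114 to 1282 FPKM in NS control and 1145 to 1214 FPKM in BCL9 KD, mostly from KRT17 and KRT5. The markers of luminal epithelium summed to 434 to 551 and 396 to 413 FPKM, mostly from KRT8 and KRT18, with ESR1 below the filter. The fibroblast markers summed to 0.556 to 0.624 and 0.652 to 0.749 FPKM with COL3A1 at 0 in every sample, the leukocyte markers to at most 0.0583 FPKM, the platelet markers to 1.24 to 1.48 and 0.978 to 1.06 FPKM, and the endothelial markers, nearly all PECAM1, to 1.80 to 2.42 and 3.22 to 4.06 FPKM.

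Of the 10 genes, 8 passed the filter and were tested, and SPP1 and VTN were below it. Among the 8, FN1 rose and ITGB3 and THBS1 fell in BCL9 KD cells. That is 1 gene higher and 2 lower, where 807 of all 13745 genes tested (5.87%) were called, 407 (2.96%) higher and 400 (2.91%) lower. With voom on the recovered reads, which called 10.2% of all genes, and with a correction of each sample for GC content, which called 13.3%, the same 3 genes were called in the same directions. Without the filter on low values THBS1 (limma adjusted p = 0.131) and FN1 (0.0843) were lost, and without the trend in the limma fit FN1 was lost (0.0542). Values of NS control and BCL9 KD samples did not overlap for 6 of the 8, while this held for 34.2% of all genes tested. The reads behind a value ranged from 420 to 204480 for the 8 tested genes. In whole cultures, fewer cells that express a gene and less of its RNA per cell cannot be told apart.

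**Figure D1:**
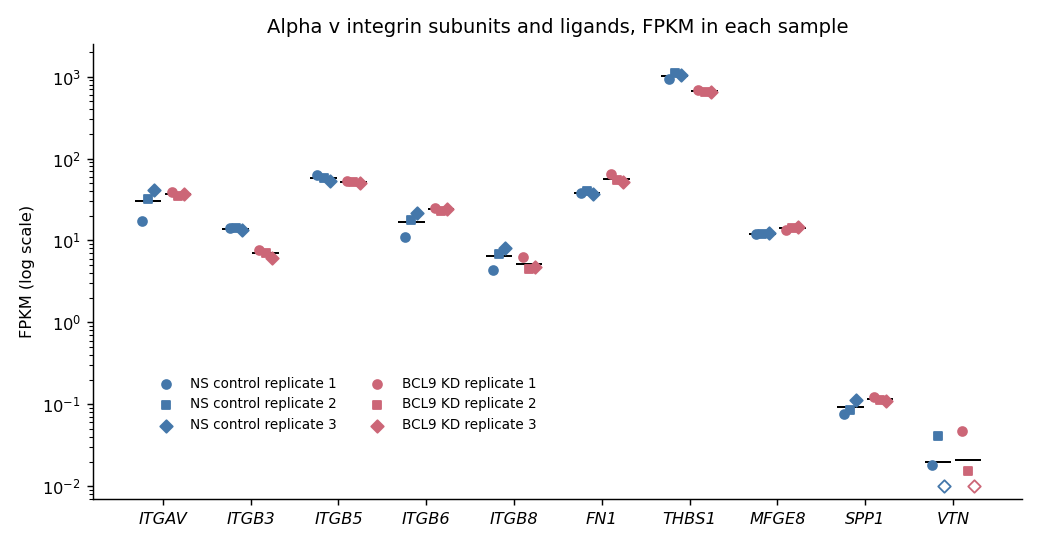
FPKM of the 10 genes in each of the 6 samples on a log axis, with a point for each NS control (blue) and BCL9 KD (red) replicate and a line at each group mean, and with VTN values of 0 drawn as open symbols at the foot of the axis. THBS1 lies far above the others at 653 to 1104 FPKM, and SPP1 and VTN lie below 0.2 FPKM in every sample.

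By FPKM, the order of the levels set the ligands at both ends. In NS control cells THBS1 was highest with a mean of 1025 FPKM, followed by ITGB5 at 58.0, FN1 at 38.2, ITGAV at 30.1, ITGB6 at 16.9, ITGB3 at 13.9, MFGE8 at 12.0 and ITGB8 at 6.41 FPKM. The ranges of FN1 and ITGAV, of ITGB6 and ITGB3 and of ITGB6 and MFGE8 overlapped, and the order within each of these pairs differed between the 3 samples. The ranges of ITGAV and ITGB6 overlapped too, but ITGAV was above ITGB6 within each sample, with ITGB6 at 0.651, 0.552 and 0.534 times ITGAV. In BCL9 KD cells the order was THBS1 at 666, FN1 at 56.6, ITGB5 at 51.4, ITGAV at 36.7, ITGB6 at 24, MFGE8 at 14.1, ITGB3 at 6.99 and ITGB8 at 5.17 FPKM, where the ranges of FN1 and ITGB5 and of ITGB3 and ITGB8 overlapped, although the first of each pair was the higher within every sample. ITGB3 was thus above MFGE8 in every NS control sample and below it in every BCL9 KD sample.

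ITGAV (ENSG00000138448, chr2:186590065-186680901, hg38, plus strand) encodes the α subunit shared by all of these receptors. In replicates 1, 2 and 3, in this order here and for each gene that follows, its level was 17.1, 32.1 and 41.1 FPKM in NS control and 38.5, 34.7 and 37 FPKM in BCL9 KD samples. NS control replicate 1 was far below all other samples, and replicate 3 of the same group was the highest of the 6, so the groups overlapped. The means were 30.1 ± 12.1 FPKM (SD, n = 3) and 36.7 ± 1.91 FPKM (SD, n = 3). On the log2 scale this was a fold change of 0.37 ± 0.287 (SE) with a 95% interval from −0.31 to 1.05 and a limma adjusted p of 0.430. Without NS control replicate 1 its difference was 0.015 on the log2 scale (limma adjusted p = 0.946). Transcripts of ITGAV are poor in G and C, with a GC content of 38.1% that lies at percentile 5.58 of the genes tested, and the gene's deviation in NS control replicate 1 was −0.89 on the log2 scale. With the GC correction the log2 fold change was 0.14. The part of the GC content in these values was not tested for single genes.

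**Figure D2:**
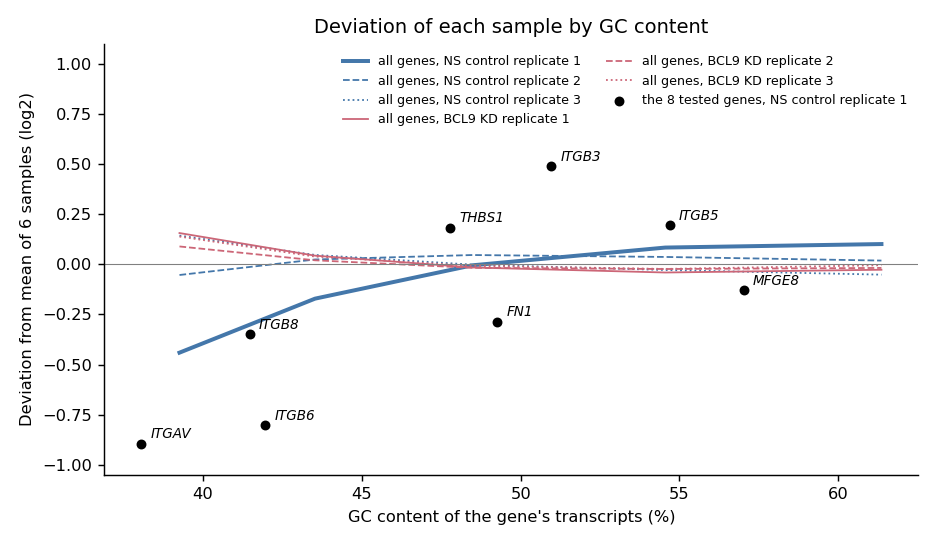
Deviation from the mean of the 6 samples on the log2 scale, against the GC content of a gene's transcripts in percent, with a line for each sample through the median of all tested genes in each of 5 GC bins and points for the 8 genes in NS control replicate 1. In NS control replicate 1 the line drops to −0.44 in the lowest GC bin, and ITGAV (−0.89), ITGB6 (−0.80) and ITGB8 (−0.35) lie below 0 at that side, whereas ITGB3 lies at 0.49.

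ITGB3 (ENSG00000259207, chr17:47253846-47311816, hg38, plus strand) encodes integrin β3, the partner of αV in the classical vitronectin receptor and of αIIb on platelets. It was at 14.0, 14.0 and 13.6 FPKM in NS control samples and at 7.75, 7.12 and 6.10 FPKM in BCL9 KD samples, from 909 to 1402 and from 420 to 843 reads. The 3 NS control samples lay within 0.5 FPKM of each other and above every BCL9 KD sample. ITGB3 fell with a log2 fold change of −0.95 ± 0.0956 (SE) with a 95% interval from −1.17 to −0.72 and a limma adjusted p of 0.00942, and it was between −1.02 and −0.86 when each sample was left out in turn. The limma adjusted p was 0.0640 without NS control replicate 2, 0.0589 without BCL9 KD replicate 2 and 0.0617 without BCL9 KD replicate 3. In contrast to ITGAV, NS control replicate 1 did not stand apart for ITGB3, and without that sample the difference was −0.94 on the log2 scale (limma adjusted p = 0.0176).

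Over the 6 samples, the genes whose log2 values followed those of ITGB3 most closely, among 6581 genes with a mean of at least 5 FPKM, were KNOP1 (Pearson r = 0.997), ADORA1 (0.996), EXOSC6 (0.995), TEX2 (0.995) and PIP5K1A (0.994). These correlations describe 6 samples that fall into 2 groups, so any gene with a similar step between the groups and little spread ranks high. ADORA1, the adenosine A1 receptor, had means of 6.78 FPKM in NS control and 4.14 FPKM in BCL9 KD cells, and PIP5K1A, a kinase that makes the phosphoinositide to which talin binds, had means of 26.5 and 18.4 FPKM.

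ITGB5 (ENSG00000082781, chr3:124761948-124901418, hg38, minus strand), which encodes a second vitronectin receptor subunit, was the most abundant of the 4 β subunits in every sample. It was at 62.5, 58.0 and 53.5 FPKM in NS control and at 52.6, 51.2 and 50.4 FPKM in BCL9 KD samples. The groups did not overlap, but the lowest NS control value was within 1 FPKM of the highest BCL9 KD value. The log2 fold change was −0.17 ± 0.0758 (SE, 95% interval −0.35 to 0.01, limma adjusted p = 0.202), which did not pass the threshold.

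ITGB6 (ENSG00000115221, chr2:160099666-160271888, hg38, minus strand), the epithelial subunit of the TGF-β activating receptor αVβ6, was at 11.1, 17.7 and 21.9 FPKM in NS control and at 24.9, 23.0 and 24.2 FPKM in BCL9 KD samples. All BCL9 KD values were above all NS control values, and the spread was almost entirely within NS control, with replicate 1 the lowest. The log2 fold change was 0.54 ± 0.221 (SE, 95% interval 0.02 to 1.07), and the limma adjusted p of 0.17 missed the threshold. Leaving out NS control replicate 1 gave 0.28 on the log2 scale (limma adjusted p = 0.142). Leaving out NS control replicate 3 gave 0.75 (limma adjusted p = 0.0497), in a fit that called 12.6% of all genes tested. The size and the call thus rested on which NS control samples were included. The GC content of ITGB6 was 42.0%, at percentile 22.4 of the genes tested. With the GC correction its log2 fold change was 0.47 (95% interval 0.06 to 0.87, limma adjusted p = 0.119).

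ITGB8 (ENSG00000105855, chr7:20330702-20415754, hg38, plus strand) encodes the other subunit that activates latent TGF-β with αV. Its values were 4.33, 6.74 and 8.17 FPKM in NS control and 6.29, 4.44 and 4.78 FPKM in BCL9 KD samples. The groups overlapped, since NS control replicate 1 was the lowest and NS control replicate 3 the highest of the 6. The log2 fold change was −0.26 ± 0.227 (SE, 95% interval −0.80 to 0.28, limma adjusted p = 0.483), it was −0.50 without NS control replicate 1 (limma adjusted p = 0.110) and −0.074 without NS control replicate 3 (limma adjusted p = 0.829). With the GC correction the log2 fold change of ITGB8 was −0.36 (limma adjusted p = 0.217). ITGB6 and ITGB8 are close in GC content, 42.0% and 41.5%, and the ratio of their FPKM varied little within NS control, at 2.57, 2.63 and 2.68, against 3.96, 5.19 and 5.05 in BCL9 KD samples. The ratio was chosen after the values were seen and was not tested.

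**Figure D3:**
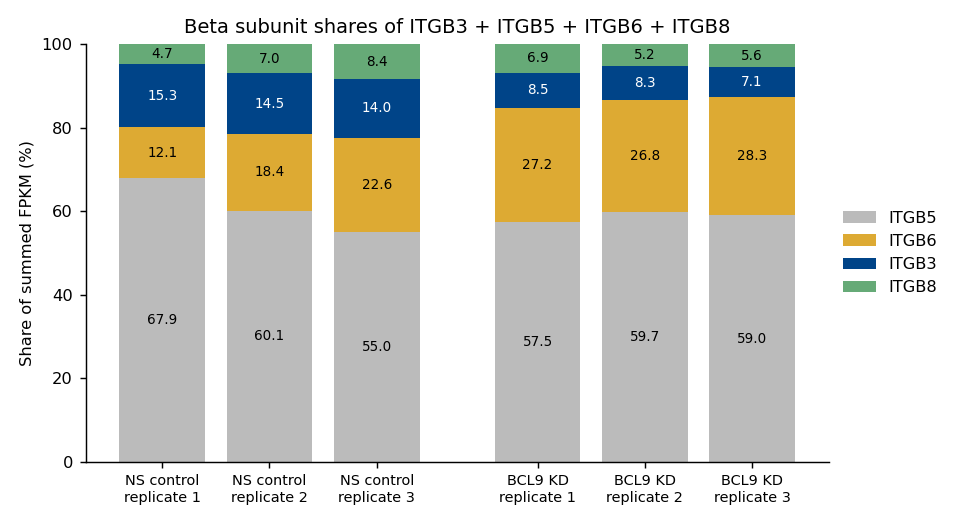
Share of ITGB3, ITGB5, ITGB6 and ITGB8 in their summed FPKM, in percent, as a stacked bar for each of the 6 samples. ITGB3 has 14.0% to 15.3% in NS control and 7.14% to 8.47% in BCL9 KD samples, ITGB6 has 12.1% to 22.6% and 26.8% to 28.3%, and the groups overlap for ITGB5 and ITGB8.

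Set against each other within a sample, the 4 β subunits summed to 92.0, 96.4 and 97.2 FPKM in NS control and to 91.5, 85.8 and 85.5 FPKM in BCL9 KD samples. Their shares do not move with depth or with a scaling factor common to all genes of a sample, but can move with quantile normalization or the GC correction. ITGB3 made up 15.3%, 14.5% and 14.0% of the sum in NS control and 8.47%, 8.30% and 7.14% in BCL9 KD samples. Its mean share was 14.6% ± 0.643 (SD, n = 3) and 7.97% ± 0.724 (SD, n = 3), a difference of −6.62 percentage points, and the groups did not overlap. The 2-sided exact permutation p was 0.1, the smallest that this test can give for 3 samples against 3, so it cannot reach p under 0.05 for any share (Benjamini-Hochberg adjusted over the 4 shares, 0.2).

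ITGB6 was the other subunit whose shares did not overlap between the groups. Its share was 12.1%, 18.4% and 22.6% in NS control and 27.2%, 26.8% and 28.3% in BCL9 KD samples, a difference in means of 9.75 percentage points (exact permutation p = 0.1, adjusted 0.2) that was 6.97 points without NS control replicate 1. ITGB5 held 67.9%, 60.1% and 55.0% in NS control and 57.5%, 59.7% and 59.0% in BCL9 KD samples, and its difference of −2.31 points (exact permutation p = 0.7, adjusted 0.7) changed sign to 1.14 without NS control replicate 1. For ITGB8 the shares were 4.70%, 6.99% and 8.41% against 6.87%, 5.17% and 5.60%, and the difference of −0.82 points (exact permutation p = 0.6, adjusted 0.7) was 0.0368 without NS control replicate 3. In NS control cells ITGB3 and ITGB6 ranked in either order, with ITGB3 ahead in replicate 1 and ITGB6 ahead in replicates 2 and 3. In all 3 BCL9 KD samples ITGB6 was ahead of ITGB3.

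Relative to its partner, there were 82.1, 43.7 and 33.1 FPKM of ITGB3 per 100 FPKM of ITGAV in NS control and 20.1, 20.5 and 16.5 in BCL9 KD samples. The log2 ratio of ITGB3 to ITGAV was −0.28, −1.2 and −1.6 in NS control and −2.31, −2.29 and −2.60 in BCL9 KD samples, without overlap. The difference in means was −1.37 (exact permutation p = 0.1), and it was −1.0 without NS control replicate 1, whose ITGAV value was low, and −1.66 without NS control replicate 3. The summed β subunits were 5.38, 3.00 and 2.36 times ITGAV in NS control and 2.38, 2.47 and 2.31 times ITGAV in BCL9 KD samples, so that outside NS control replicate 1 the sum was between 2.31 and 3.00 times the shared α subunit. ITGB1, which also pairs with αV but has many other α partners, was above all 4 β subunits in each sample, at 71.8, 103 and 112 FPKM in NS control and 130, 136 and 136 FPKM in BCL9 KD samples.

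**Figure D4:**
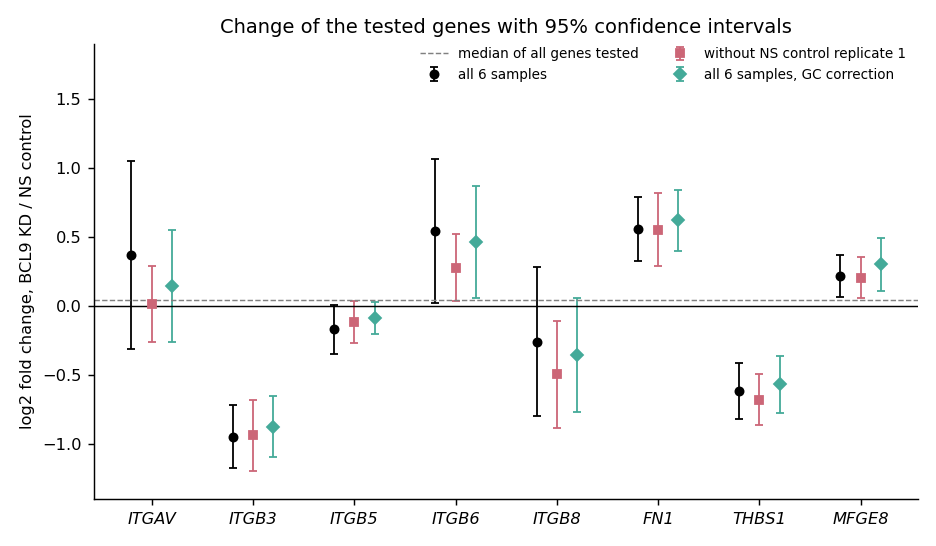
Log2 fold change (BCL9 KD minus NS control) of the 8 tested genes with its 95% interval from limma, beside the values without NS control replicate 1 and with the GC correction, and with a dashed line at the median of all genes tested. FN1 (0.56), ITGB3 (−0.95) and THBS1 (−0.62) are called, and ITGAV moves from 0.37 to 0.015 without NS control replicate 1.

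Among the ligands, THBS1 and FN1 changed in opposite directions. THBS1 (ENSG00000137801, chr15:39581079-39599466, hg38, plus strand) encodes thrombospondin 1, a matricellular glycoprotein that also activates latent TGF-β and binds CD36 and CD47. It was at 937, 1104 and 1033 FPKM in NS control and at 693, 653 and 654 FPKM in BCL9 KD samples. Every BCL9 KD sample was below every NS control sample, and the gene alone took 0.858%, 1.01% and 0.946% of all reads on genes in NS control and 0.634%, 0.598% and 0.599% in BCL9 KD samples. The means were 1025 ± 83.6 FPKM (SD, n = 3) and 666 ± 22.7 FPKM (SD, n = 3). This fall had a log2 fold change of −0.62 ± 0.0870 (SE, 95% interval −0.82 to −0.41, limma adjusted p = 0.0188). It lay between −0.68 and −0.56 when each sample was left out, with a limma adjusted p of 0.0855 without NS control replicate 2, 0.12 without BCL9 KD replicate 2 and 0.128 without BCL9 KD replicate 3.

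FN1 (ENSG00000115414, chr2:215360440-215436172, hg38, minus strand) encodes fibronectin, the main RGD protein of the provisional matrix and a common marker of mesenchymal cells. It was at 37.9, 40.2 and 36.4 FPKM in NS control and at 64.0, 54.8 and 51.0 FPKM in BCL9 KD samples. All BCL9 KD samples were higher, with replicate 1 the highest, and the means were 38.2 ± 1.9 FPKM (SD, n = 3) and 56.6 ± 6.71 FPKM (SD, n = 3). For this rise the log2 fold change was 0.56 ± 0.0973 (SE, 95% interval 0.33 to 0.79, limma adjusted p = 0.0313). With each sample left out it was between 0.47 and 0.63, with limma giving an adjusted p of 0.118 without NS control replicate 2, 0.144 without BCL9 KD replicate 2 and 0.109 without BCL9 KD replicate 3.

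The FPKM of THBS1 was 24.7, 27.5 and 28.4 times that of FN1 in NS control and 10.8, 11.9 and 12.8 times in BCL9 KD samples. These multiples rest on the deposited gene lengths. THBS1 made up 94.9%, 95.5% and 95.5% of the summed FPKM of the 5 ligands in NS control and 89.9%, 90.4% and 90.9% in BCL9 KD samples. FN1 made up most of the rest, 3.84%, 3.48% and 3.36% against 8.31%, 7.59% and 7.09%. Neither ratio was tested apart from the fold changes of the genes.

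MFGE8 (ENSG00000140545, chr15:88898683-88913411, hg38, minus strand) encodes a secreted protein of milk fat globules that bridges apoptotic cells to αVβ3 and αVβ5 on phagocytes. Its values were close within each group, 11.8, 11.9 and 12.3 FPKM in NS control and 13.6, 14.2 and 14.4 FPKM in BCL9 KD samples. The groups did not overlap and the log2 fold change was 0.22 ± 0.0649 (SE, 95% interval 0.06 to 0.37), but the limma adjusted p was 0.0925, and 0.0552 with the GC correction.

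SPP1 (ENSG00000118785, chr4:87975650-87983426, hg38, plus strand), which encodes osteopontin, was near the limit of what could be counted. It had 4 reads in each NS control sample and 5, 7 and 4 reads in BCL9 KD samples, which is 0.0759, 0.0852 and 0.113 FPKM and 0.122, 0.112 and 0.110 FPKM. VTN (ENSG00000109072, chr17:28367276-28373091, hg38, minus strand), which encodes vitronectin, a protein made mainly by the liver that reaches cultured cells through serum, had 1, 2 and 0 reads in NS control and 2, 1 and 0 reads in BCL9 KD samples. At the depth of these samples a count of 0 allows up to 3 reads, or 0.0812 FPKM in NS control replicate 3 and 0.0789 FPKM in BCL9 KD replicate 3, for counting error only. A difference in either gene was not detectable at this depth.

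Several of the genes share their span with other annotated genes, and whether the counting used strand is not stated. Reads on THCAT158, an antisense RNA within ITGB3, were 15, 29 and 23 in NS control and 18, 19 and 7 in BCL9 KD samples, few beside those on ITGB3. CTA-293F17.1, which is antisense to ITGB8, had 1, 3 and 2 reads in NS control and 11, 15 and 13 reads in BCL9 KD samples, was below the filter and was not tested. CTD-2033D15.2, a transcript inside a THBS1 intron on the same strand, was at 5.83, 12.7 and 13.3 FPKM in NS control and 10.1, 11 and 12.3 FPKM in BCL9 KD samples (log2 fold change 0.14, limma adjusted p = 0.769), while THBS1 itself fell. The other overlapping genes were AC017101.10 in ITGAV, RNU7-186P, RP11-290H9.2 and RP11-290H9.5 in ITGB3, ENO1P3, ITGB5-AS1, 7SK and RP11-71H17.8 in ITGB5, AC092153.1 and LINC02478 in ITGB6, SNORD56 in ITGB8, SARM1, CTB-96E2.3 and CTB-96E2.2 in VTN and CTD-2033D15.3 in THBS1. Of these, SARM1 had 19 to 37 reads in each sample and all others had at most 10 reads in any sample.

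The stretches upstream of the 2 ligands that changed are shown because BCL9 acts on transcription with sequence-specific factors. Promoters were taken from RefSeq on GRCh38.p14 as 250 bases before to 50 after the start, with entries for 9 of the 10 genes, all but ITGB3. Motifs searched on both strands were TTCNNNGAA (the STAT core), CTTTGA (the core of TCF/LEF sites), TGANTCA (AP-1) and TGACGTCA (CREB). The stretch of THBS1 at chr15:39580829-39581078 (plus strand) holds a TTCNNNGAA match in capitals that begins 207 bases before the start, and that of FN1 at chr2:215436173-215436318 (minus strand) a TGACGTCA match that begins 183 bases before its RefSeq start.
THBS1 upstream: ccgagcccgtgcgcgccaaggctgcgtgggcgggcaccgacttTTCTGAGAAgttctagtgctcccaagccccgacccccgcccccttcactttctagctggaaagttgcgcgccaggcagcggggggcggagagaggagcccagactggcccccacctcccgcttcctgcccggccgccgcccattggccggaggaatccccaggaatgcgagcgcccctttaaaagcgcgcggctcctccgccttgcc
FN1 upstream: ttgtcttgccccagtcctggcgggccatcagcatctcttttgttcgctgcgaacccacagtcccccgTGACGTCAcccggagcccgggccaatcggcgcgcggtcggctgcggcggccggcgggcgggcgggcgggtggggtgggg
A TTCNNNGAA match was found in the promoters of THBS1 and VTN and in 7.66% of all 35116 promoters, and a TGACGTCA match in FN1 and in 1.85% of all. CTTTGA, in 12.9% of all promoters, and TGANTCA, in 7.71%, had no match in the promoters of the 9 genes. A match describes the letters in the window and was not tested for binding.

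**Figure D5:**
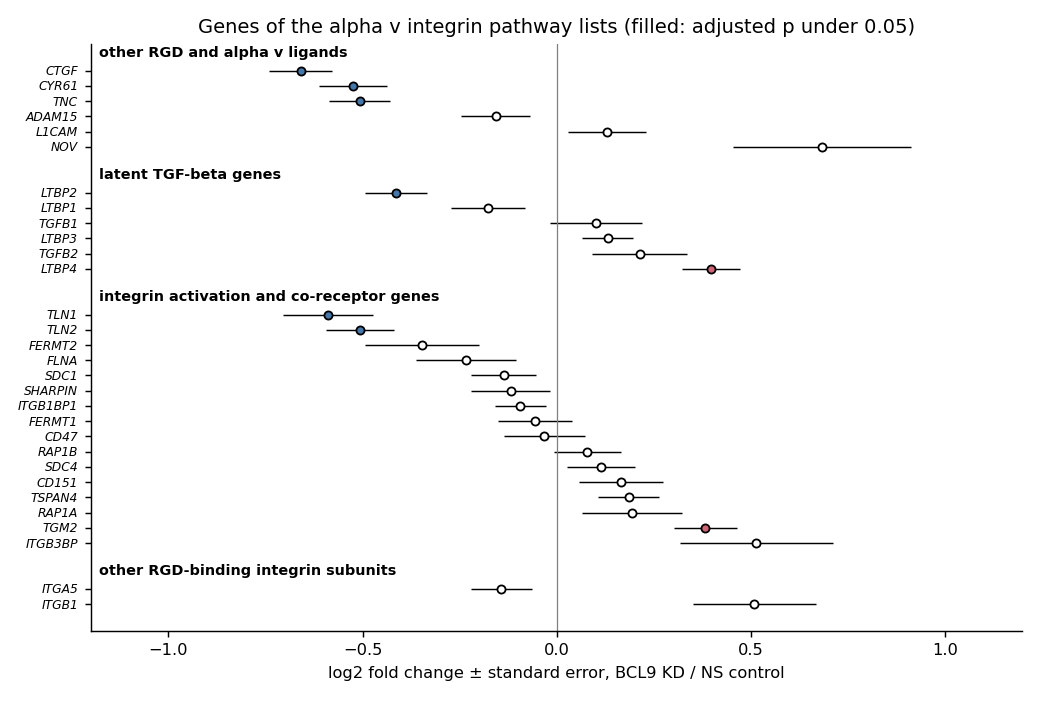
Log2 fold change (BCL9 KD minus NS control) of every tested gene in 4 lists of related genes, a point for each gene with its standard error as a line, filled for genes called by limma. In the list of other RGD and αV ligands 3 of 6 tested genes are called, all lower, and in the other lists the called genes lie on both sides of 0 or there are none.

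Other genes of the αV system were grouped by role, and their calls are to be read against the 5.87% of all tested genes called (2.96% higher and 2.91% lower). Over the 4 lists 8 genes were called, 2 without the trend in the limma fit and 0 without NS control replicate 2, without BCL9 KD replicate 2 or without BCL9 KD replicate 3, where 10 of 30, 9 of 29 and 9 of 29 list genes tested had an unadjusted limma p under 0.05, beside 2609 of 13750, 2410 of 13783 and 2330 of 13764 of all genes tested in those fits. The fit without the trend called 332 (2.42%) of all genes. Of 22 further RGD proteins and αV ligands, 6 were expressed enough to test, and CTGF, CYR61 and TNC fell while none rose (median log2 fold change −0.33, against 0.040 over all genes tested). CTGF and CYR61 encode matricellular proteins of the CCN family that bind αVβ3 and αVβ5, and TNC encodes tenascin C. CTGF was at 41.6, 39.9 and 38.1 FPKM in NS control and at 22.8, 26.3 and 26.2 FPKM in BCL9 KD samples (log2 fold change −0.66, limma adjusted p = 0.0136). CYR61 was at 72.3, 69.7 and 68.3 FPKM against 43.1, 51.6 and 51.4 FPKM (log2 fold change −0.53, limma adjusted p = 0.0290). TNC was at 42.5, 47.4 and 41.5 FPKM against 32.1, 30.6 and 29.1 FPKM (log2 fold change −0.51, limma adjusted p = 0.0235). For each of the 3, all BCL9 KD samples were below all NS control samples, where 34.2% of all genes tested had no overlap between the groups. For NOV, another CCN gene, at less than 1 FPKM, the log2 fold change was 0.68 (limma adjusted p = 0.115).

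Of 9 genes of latent TGF-β, 6 were tested, and 1 rose and 1 fell, against 5.87% of all genes called (median log2 fold change 0.12). LTBP4, which encodes a protein that tethers latent TGF-β to the matrix, was at 3.84, 4.03 and 3.95 FPKM in NS control and 5.16, 5.57 and 5.31 FPKM in BCL9 KD samples (log2 fold change 0.40, limma adjusted p = 0.0362). LTBP2, a relative that does not bind latent TGF-β, was at 8.41, 8.70 and 7.72 FPKM against 6.40, 6.02 and 5.85 FPKM (log2 fold change −0.41, limma adjusted p = 0.0374). Of the cytokine genes, TGFB1 (log2 fold change 0.10, limma adjusted p = 0.594) and TGFB2 (log2 fold change 0.21, limma adjusted p = 0.299) did not pass, and TGFB3 was below the filter.

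Of 20 genes that activate integrins or act beside them at the membrane, 16 were tested, and 1 rose and 2 fell, against 5.87% of all genes called (median log2 fold change −0.044). Both genes that fell encode talins, which bind the β tail and switch integrins to the active state. TLN1 was at 64.9, 56.5 and 48.7 FPKM in NS control and at 40.5, 35.4 and 36.2 FPKM in BCL9 KD samples (log2 fold change −0.59, limma adjusted p = 0.0387). TLN2 was at 12.4, 12.7 and 11.5 FPKM against 9.33, 7.96 and 8.08 FPKM (log2 fold change −0.51, limma adjusted p = 0.0305). TGM2, the transglutaminase that links integrins to fibronectin, was at 30.7, 27.5 and 25.6 FPKM against 37.4, 35.6 and 36.4 FPKM (log2 fold change 0.38, limma adjusted p = 0.0466). ITGB3BP, which encodes a nuclear protein that can bind the β3 tail, differed by 0.51 on the log2 scale (limma adjusted p = 0.148).

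Of 4 other subunits of RGD-binding integrins, ITGB1 and ITGA5, which together form the main fibronectin receptor, were expressed enough to test. The difference of ITGB1 was 0.51 on the log2 scale (limma adjusted p = 0.0997), and that of ITGA5 was −0.14 (limma adjusted p = 0.278).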

How the data were processed

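RNA of 3 NS control and 3 BCL9 KD flasks of DCIS.COM was sequenced by the authors as paired-end libraries. The authors used STAR to align the reads to hg38 and HTSeq 0.6.1 to count them on genes, and deposited FPKM, together with the gene length in bases. No columns of the authors' own comparisons were used, and 0 value columns were left unmapped. FPKM multiplied by gene length gave whole reads within 0.1 for 100% of values, and the reads on genes were 15222452 to 26949026 per sample. Reads without molecular identifiers cover counting error only. Pearson r of log2 values between replicates of a group was 0.964 to 0.987, and no samples held identical values.

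Samples were grouped by their labels, which give 3 per group, whereas the study's methods name 2 biological replicates per condition; all 6 labelled samples were used. limma 3.58.1 (R 4.3.3) with an empirical Bayes trend was fitted to log2(FPKM + 0.5) over all genes with a mean of at least 0.5 FPKM, with Benjamini-Hochberg adjustment. The fit was first tried on simulated reads with the same dispersion for all genes and no outlying sample. That trial does not show how the fit behaves with a sample such as NS control replicate 1. Shares and ratios were compared by exact permutation tests (scipy 1.17.1, with numpy 2.4.6, pandas 2.3.3, matplotlib 3.10.9 and Python 3.11). The 10 genes and the lists of related genes and markers were chosen with earlier results of these data known. The text names the 10 genes, BCL9, every called gene of a list and its 3 largest changes, the 5 genes most like ITGB3, and genes overlapping the 10. It also names the TGF-β cytokine genes and some cell type markers.

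Alternatives were an added 1 or 0.1 FPKM, a filter at a mean of 1 FPKM or none, scaling by median of ratios or by quantiles, no trend, robust fitting, a replicate block, voom on recovered reads, a GC correction (loess, span 0.3, GC known for 98.8% of tested genes from GENCODE release 44 transcripts), the GC correction together with the block, leaving out each sample, and ITGB1 added to the β sum. The GC correction without NS control replicate 1 was chosen after seeing the data. RGD codons were read from GENCODE release 44 on GRCh37 and promoters from RefSeq on GRCh38.p14; coordinates of genes are those of the deposited table. Other assays of the study were not used here.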

Additional observations from a re-analysis of the deposited data

How the results depend on the processing

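Over all genes, the main limma fit called 807 genes, no filter on low values gave 142, no trend 332, voom 1400 and the GC correction 1803, and leaving out each sample gave 5 to 1729. Of the 10 genes, no filter called 1, and leaving out each sample called 0 to 4, with 0 without NS control replicate 2, BCL9 KD replicate 2 or BCL9 KD replicate 3, where 4, 3 and 3 had an unadjusted limma p under 0.05, beside 2609, 2410 and 2330 of all 13750, 13783 and 13764 genes tested. In the lists of related genes 8 were called, against 1 with no filter, 2 with no trend and 0 to 10 with each sample left out (9 to 13 at an unadjusted p under 0.05). The GC correction called 11, adding ITGB1 (limma adjusted p = 0.0431), FERMT2 (0.0188) and TSPAN4 (0.0408), the latter pair named after their values were seen. The log2 fold change of BCL9 was −1.06 to −0.95 with each sample left out, under the threshold in 3 of 6 fits, as for ITGB3, FN1 and THBS1. FN1 had a limma adjusted p of 0.0542 with no trend and 0.0843 with no filter, and THBS1 0.131 with no filter. For ITGAV the log2 fold change turned to −0.069 (limma adjusted p = 0.496) with the GC correction and without NS control replicate 1, where the cause was not tested.

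The replicate numbers were not taken as pairs in the main fit, since the study names no pairing. Same-numbered samples did not deviate together: the correlations of their deviations were −0.147, −0.0884 and −0.00287, and 0 of 3 correlated best with its own number. With 3 samples per group this cannot decide whether the flasks were paired. With the replicate block limma called 0 genes (3235 at an unadjusted p under 0.05), 0 of the 10 genes (5 unadjusted) and 0 list genes (12 unadjusted), and the log2 fold change of BCL9 was −0.99 (adjusted p = 0.0656). With the GC correction and the block, limma called 435 genes, 5 list genes and 2 of the 10 genes, ITGB3 (adjusted p = 0.0430) and FN1 (adjusted p = 0.0488), while THBS1 missed the threshold (adjusted p = 0.0591).

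With ITGB1 added to the β sum, which makes the sum larger, the difference in share was −4.21 points for ITGB3, −7.73 for ITGB5 and 2.12 for ITGB6. With the GC correction it was −6.83 points for ITGB3, −0.416 for ITGB5, 8.68 for ITGB6 and −1.44 for ITGB8. With each sample left out it was −6.93 to −6.21 for ITGB3, −5.31 to 1.14 for ITGB5, 6.97 to 12.2 for ITGB6 and −1.82 to 0.0368 for ITGB8, the sign changing for ITGB5 without NS control replicate 1 and for ITGB8 without NS control replicate 3. The directions of ITGB3, FN1 and THBS1 were unchanged under every alternative run. SPP1, VTN, CTA-293F17.1 and the list genes below the filter on low values were left out of the main fit.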
